A study of Homo sapiens with 12 samples.

Results

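DNA double-strand breaks and the crosslinks that hold both strands together are repaired by a set of genes of which 50 are described here, out of 58735 genes listed in the deposited tables. They were taken by name as genes of homologous recombination, end joining, the Fanconi pathway and the damage checkpoint, and not by any measured value. Earlier results of these data were known when they were chosen. All 50 symbols were matched to an Ensembl gene. The samples were SK-BR-3 cells, an established human breast cancer line that overexpresses ERBB2, and SK/EPI cells, a line made from them by long exposure to rising concentrations of epirubicin. SK/EPI cells were also transfected with a control siRNA (SK/EPI-siNC) or an siRNA against the transporter BCRP (SK/EPI-siBCRP) with Lipofectamine RNAiMax for 48 h, and each of the 4 groups had 3 poly-A selected RNA libraries. All SK/EPI groups therefore share the selection with the drug, and SK/EPI is a single derived line, so its difference from SK-BR-3 cells is that between 2 lines. The labels do not say that libraries of a group came from separate cultures, so the p-values measure the spread between these libraries, which may be technical.

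Epirubicin is an anthracycline that traps topoisomerase II on DNA and leaves double-strand breaks. Such breaks are rejoined directly by end joining, or are trimmed and copied from the sister strand by homologous recombination, which needs BRCA1, PALB2 and BRCA2. The Fanconi proteins recognise and unhook interstrand crosslinks and pass the resulting break to homologous recombination, while the kinases ATM and ATR signal the damage to the cell cycle.

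Levels are FPKM, the number of fragments on a gene for each kilobase of its exons, scaled to a total for each library. Reads on genes in SK-BR-3 replicate 2 came to 101% of that total, so it was not simply the number of reads in the library. Between 15830381 and 20545811 reads per library lay on genes. Differences were tested with limma on log2(FPKM + 1), and a gene is called higher or lower at an adjusted p-value under 0.05 over all genes tested. Every log2 fold change is on that scale, where the added 1 shrinks the changes of weakly expressed genes. All 6 markers of a breast epithelial line were detected. In SK/EPI cells KRT8 (0.24) and KRT18 (0.75) were higher, KRT19 (-1.69), ERBB2 (-2.30) and GRB7 (-1.27) lower and EPCAM not called (0.08). The median of their log2 fold changes was -0.59. The summed level of the 6 ranged from 3536 to 3732 FPKM in SK-BR-3 cells and from 2206 to 2324 FPKM in SK/EPI cells, with ERBB2 at 659 ± 5.70 and 133 ± 4.04 FPKM (SD, n = 3). VIM, ZEB1, COL1A2 and CDH2 of the 7 mesenchymal markers had at most 4 reads in any library, and PTPRC and LYZ of the 5 immune markers at most 14. SPARC and CD14 were higher in SK/EPI cells, so that the summed mesenchymal level ranged from 147 to 156 FPKM in SK/EPI cells and from 20.5 to 22.2 FPKM in SK-BR-3 cells, and the immune level from 27.1 to 28.9 and from 1.39 to 1.77 FPKM. The other 2 mesenchymal markers tested were lower, with a median log2 fold change of -0.52 over the 3. Of the 3 immune markers tested, 1 was higher and 1 lower, with a median of -0.19. Of the 3 endothelial markers PECAM1 had at most 40 reads in any library, while CDH5 was at 27.5 FPKM in SK/EPI and 6.77 FPKM in SK-BR-3 cells, and the summed endothelial level ranged from 27.0 to 28.1 and from 6.67 to 6.99 FPKM. In these bulk samples a lower share of expressing cells and less RNA per cell cannot be told apart. The part of the marker differences in the values of the repair genes was not tested.

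The siRNA taken as that of the silenced libraries was siBCRP#1. The paper also used siBCRP#2, and its RNA-seq methods do not give the number. The strand of siBCRP#1 is shown with its seed, the bases that pair with off-target messages. They allow the repair genes to be searched for matches. The oligonucleotide list names its strands only upper and lower, so the strand antisense to ABCG2 was taken as the guide, and the seed counts depend on that choice. The capitals mark bases 2 to 8 of the guide strand.
siBCRP guide strand: aUAACCAGcugauucaaaguauccc
The whole target was found in transcripts of ABCG2, the gene of BCRP, and of no other gene. The seed match CTGGTTA lay in the 3′ UTR of 2 of the 49 repair genes that were tested, FANCC and RNF8, against 10.6% of 12885 genes with a 3′ UTR. The capitals below mark the match.
FANCC: cggtgactctcCTGGTTAtctgggcattt
RNF8: gtgtcccatatCTGGTTAtgttaacctag

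Promoter windows of RefSeq (GRCh38.p14, 250 bases before to 50 after each start) were found for 44 of the 50 genes. FANCI, H2AFX, NBN, PRKDC, RAD54B and XRCC5 had no entry. The windows were searched on both strands for the CCAAT box. They were also searched for an E2F motif (TTTCCCGC, TTTGGCGC, TTTGCCGC or TTTCGCGC). The cell cycle homology region (TTTGAA or TTCGAA) was the last motif searched. A CCAAT box lay in 22 of the 44 genes, against 39.7% of 27305 genes, and an E2F motif in 6 (13.6%), against 3.99%. The cell cycle homology region lay in 6 (13.6%), against 19.5%. Stretches around a CCAAT box are shown for LIG4, the repair gene with the largest fall in SK/EPI cells, and for XRCC3 and BRCA1, which were higher there, to show that the same letters stood before genes that moved in opposite directions. They are written 5′ to 3′ on the gene's own strand, with CCAAT or its reverse complement ATTGG in capitals.
LIG4, chr13:108215674-108215770, minus strand: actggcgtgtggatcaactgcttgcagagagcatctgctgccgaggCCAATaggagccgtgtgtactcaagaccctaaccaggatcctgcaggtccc
XRCC3, chr14:103715509-103715605, minus strand: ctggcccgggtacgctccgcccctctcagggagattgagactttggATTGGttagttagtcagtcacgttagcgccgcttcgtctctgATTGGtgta
BRCA1, chr17:43125489-43125585, minus strand: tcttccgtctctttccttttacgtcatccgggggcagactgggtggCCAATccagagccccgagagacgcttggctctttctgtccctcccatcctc
Of the genes with a window, the box was present in 6 of 16 that were higher in SK/EPI cells, 7 of 11 that were lower and 9 of 16 that were not called. A match is a run of letters and not a bound site.

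The repair genes were expressed over a wide range that differed little between groups. Their median level was 3.68 FPKM in SK-BR-3 cells, 3.68 FPKM in SK/EPI cells, 4.19 FPKM in SK/EPI-siNC cells and 4.40 FPKM in SK/EPI-siBCRP cells. In each group 8 of the 50 were above 10 FPKM, and 44 or 45 were above 1 FPKM. Per length, the most abundant in SK-BR-3 cells were XRCC6 (113 ± 3.26 FPKM, SD, n = 3) and XRCC5 (50.3 ± 1.85 FPKM), the Ku subunits that clamp free DNA ends, with the histone variant gene H2AFX (106 ± 1.63 FPKM), NBN (72.3 ± 3.23 FPKM) and PRKDC (58.7 ± 2.01 FPKM). In SK/EPI cells H2AFX (80.4 ± 3.67 FPKM) and XRCC6 (79.3 ± 1.84 FPKM) did not differ beyond their spread. BRCA2, which loads the strand exchange recombinase, was at 1.16 to 1.26 FPKM in the SK-BR-3 libraries and at 1.46 ± 0.226 FPKM in SK/EPI cells. NHEJ1, an end-joining scaffold, had between 1 and 7 reads in any library and was not tested, which left 49 genes in both comparisons. NHEJ1 and RAD50 share 65.4% and 79.7% of their exonic bases with annotated genes on the same strand (AC068946.1 and AC116366.3), and RAD54B shares 59.1% with FSBP, so their levels depend on how reads in shared exons were counted. XRCC3 shares 76.7% of its exonic bases with KLC1 on the opposite strand, and whether the counting used the strand is not given in the sources used here.

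In SK/EPI cells compared with SK-BR-3 cells, repair genes moved in both directions by small amounts, with no common direction. Of the 49 tested, 17 were higher and 14 lower (31 of 49, 63.3%), while 74.9% of all genes tested were called, 37.9% higher and 37% lower. Their median log2 fold change was 0.030, against 0.0084 for all genes. LIG4, the ligase that closes the last step of end joining, was the only 1 of the 49 whose log2 fold change reached 1 in size, and it fell. RBBP8, which starts the trimming of ends for homologous recombination, showed the largest rise. On the log2(FPKM + 1) scale, a change of 0.5 or more in either direction was seen in 9 of the called repair genes. These were 18.4% of those tested, against 36.8% of all genes. The part of the added 1 in this difference was not tested. The libraries of both groups did not overlap in 38 of the 49, including all 31 that were called, against 77.7% of all genes tested, and 34 had an unadjusted p-value under 0.05, against 76.8%. The 18 that were not called had 95% intervals between -0.41 (BRIP1) and 0.33 (BRCA2). Reads on genes came to 99.8% to 101% of the total used for scaling in SK-BR-3 cells and to 92.8% to 95.4% in SK/EPI cells. Scaled to the reads on genes instead, 24 repair genes were higher and 13 lower, with a median log2 fold change of 0.10, and over all genes 6697 were higher and 5263 lower, with a median of 0.061. The median shift in log2 fold change under that scaling was 0.069 over all genes and 0.068 over the repair genes. The share called depended on the setting. Scaled to the reads on genes it was 75.5% of the repair genes and 75.6% of all genes, and with voom 79.6% and 76.6%. It was 77.6% and 75.8% when the mitochondrial chromosome was also left out, and 52.0% and 37.7% without a filter on low genes. Under the remaining settings it was lower for the repair genes than for all genes.

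**Figure D1:**
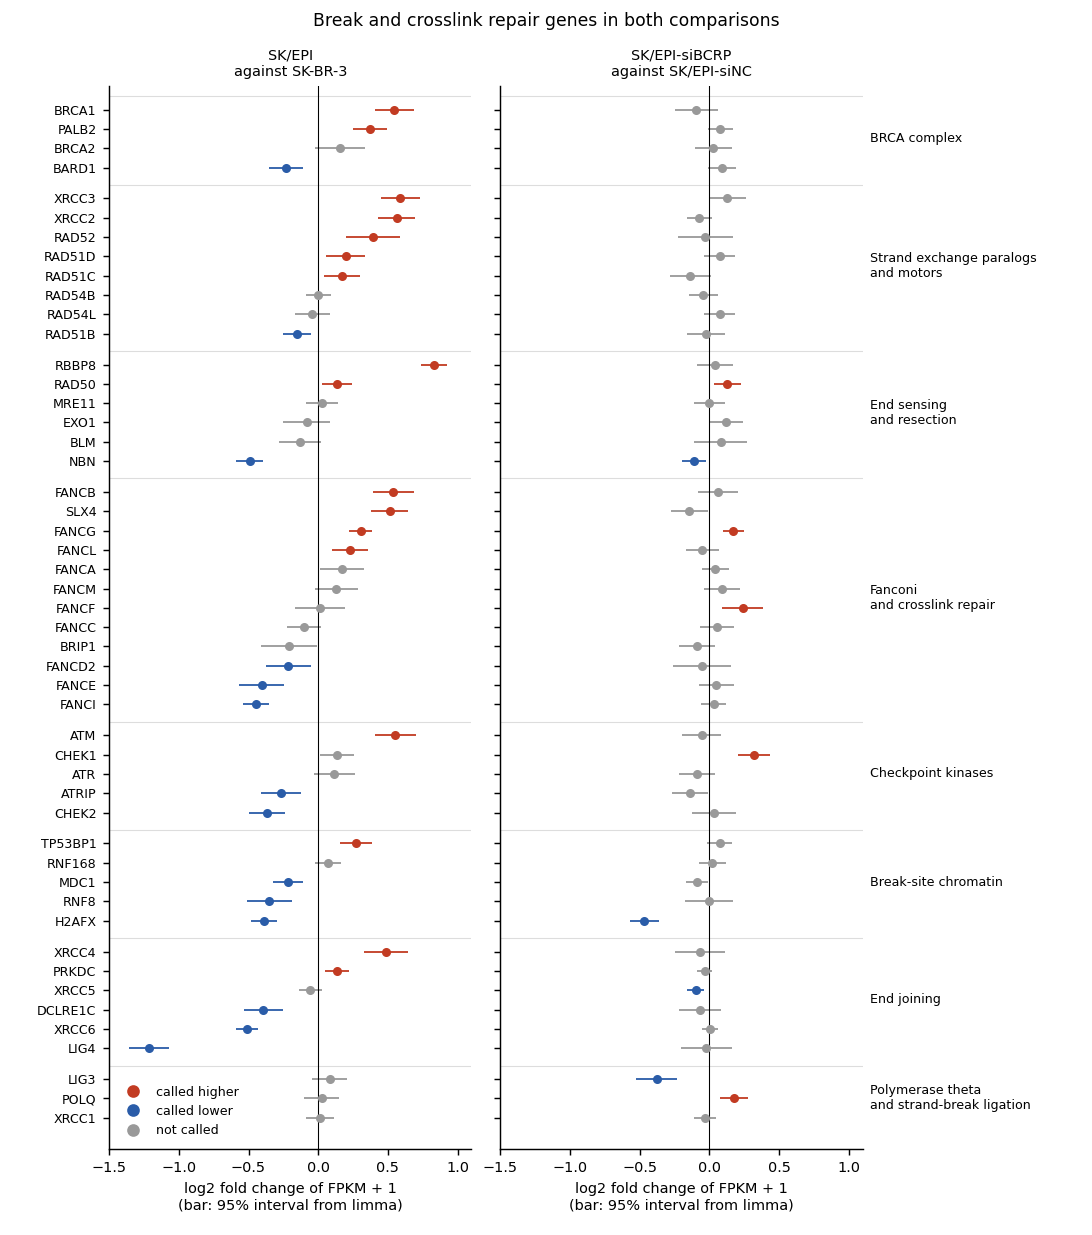
Log2 fold change of FPKM + 1 on the horizontal axis for the 49 tested repair genes by role, in SK/EPI against SK-BR-3 cells (left) and SK/EPI-siBCRP against SK/EPI-siNC cells (right); points are limma estimates, bars 95% intervals, red and blue mark genes called higher and lower and grey those not called. On the left 17 genes were called higher and 14 lower, with LIG4 at -1.21 and RBBP8 at 0.83 farthest from 0, and on the right 9 were called, all within 0.5 of 0.

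Among the BRCA proteins, BRCA1 and PALB2 rose and BARD1 fell. BRCA1, which directs breaks to homologous recombination, was at 1.70, 1.63 and 1.91 FPKM in the SK-BR-3 libraries and at 3.03, 2.96 and 3.03 FPKM in those of SK/EPI. It was 1.72-fold higher in SK/EPI cells, with no overlap between groups (log2 fold change 0.55, SE 0.06, adjusted p = 6.8e-05, limma). BARD1, its obligate partner in the ubiquitin ligase that both form, moved the other way, from 5.77, 5.17 and 5.69 FPKM to 4.58, 4.51 and 4.65 FPKM. Its groups did not overlap either (-0.23, SE 0.052, adjusted p = 0.0045). PALB2, the bridge between BRCA1 and BRCA2, rose from 5.17 to 6.99 FPKM (0.37), and BRCA2 was not called (0.16, adjusted p = 0.099). BRCA2 was past the threshold with voom, under both scalings to reads on genes and without SK/EPI replicate 2.

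Of the 8 genes for strand exchange paralogs and DNA motors, 5 were higher (62.5%) and 1 lower (12.5%). The called share was 75%, against 74.9% of all genes tested. XRCC3, a paralog that stabilises recombination filaments, was at 2.79, 2.42 and 2.64 FPKM in SK-BR-3 and 4.36, 4.30 and 4.64 FPKM in SK/EPI libraries, a 1.69-fold rise without overlap (0.59, SE 0.06, adjusted p = 4.4e-05, limma). As given above, most of its exons overlap KLC1. XRCC2 of the same family rose from 3.87 to 6.18 FPKM (0.56), and RAD52, an annealing factor, from 2.30 to 3.32 FPKM (0.39). RAD51C and RAD51D rose by 0.17 and 0.20, and RAD51B fell by 0.15 on the log2 scale. These 3 paralogs were at 0.417 to 1.01 FPKM in both lines, and none kept its call without a filter on low genes. RAD51C also lost it without SK-BR-3 replicate 1 or 3 or SK/EPI replicate 2 or 3, and RAD51D without SK-BR-3 replicate 3 or SK/EPI replicate 1 or 3. The motor protein genes RAD54L (-0.04) and RAD54B (0.0012) were not called.

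The genes that sense and trim ends went separate ways. RBBP8, which encodes CtIP (GRCh38 chr18:22798261-23026488, plus strand), was at 7.91, 7.58 and 8.22 FPKM in SK-BR-3 and 14.6, 14.9 and 15.1 FPKM in SK/EPI libraries. This 1.88-fold rise was the largest among the repair genes tested (0.83, SE 0.04, adjusted p = 5e-07, limma), and both groups were tight. NBN, the regulatory subunit of the MRE11 complex that first binds an end, was at 68.9, 72.5 and 75.4 FPKM in SK-BR-3 and 51.0, 52.7 and 49.5 FPKM in SK/EPI libraries, and fell without overlap (-0.49, SE 0.042, adjusted p = 1.4e-05). The other subunits did not follow it: the nuclease MRE11 was at 5.44 and 5.58 FPKM and was not called (0.03, 95% interval -0.09 to 0.14), and RAD50 rose from 0.389 to 0.528 FPKM (0.14), a call that was kept, with a library left out, only without SK/EPI replicate 2. EXO1 (-0.08) and the helicase gene BLM (-0.13), which act in long-range trimming, were not called.

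Fanconi pathway genes split within the core complex. Of 12 genes, 4 were higher (33.3%), 3 lower (25%) and 5 not called, against 37.9% higher and 37% lower of all genes tested. FANCB, a core subunit of the ligase that marks crosslinks, rose without overlap from 1.89, 1.80 and 1.65 FPKM to 3.02, 2.86 and 3.25 FPKM, a 1.71-fold change (0.54, SE 0.064, adjusted p = 0.0001, limma). FANCG (12.4 to 15.5 FPKM, 0.31) and FANCL, the catalytic subunit (3.93 to 4.78 FPKM, 0.23), rose as well, while FANCE of the same complex fell from 5.42 to 3.86 FPKM (-0.40). FANCA (0.17), FANCC (-0.10), FANCF (0.01) and FANCM (0.13) were not called. FANCI and FANCD2, which this ligase ubiquitinates as a pair, were both lower. FANCI was at 12.6, 13.5 and 13.4 FPKM in SK-BR-3 and 9.36, 9.28 and 9.57 FPKM in SK/EPI libraries (-0.45, SE 0.039, adjusted p = 1.8e-05), with a clear gap between groups. FANCD2 fell by 0.22 on the log2 scale, and its call was lost when values were scaled to the reads on genes, without a filter, and without SK-BR-3 replicate 2 or 3 or SK/EPI replicate 1. SLX4, the scaffold for the nucleases that unhook crosslinks, rose from 1.37 to 2.38 FPKM (0.51), and the helicase gene BRIP1 was at 1.25 and 0.949 FPKM and not called (-0.21, adjusted p = 0.059).

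The damage kinase genes moved in both directions. ATM, the kinase activated at double-strand breaks, was at 1.15, 1.33 and 1.33 FPKM in SK-BR-3 and 2.53, 2.25 and 2.22 FPKM in SK/EPI libraries, 1.84-fold higher without overlap (0.55, SE 0.064, adjusted p = 9.6e-05, limma). CHEK2, the kinase downstream of ATM, fell from 6.21, 6.43 and 6.36 FPKM to 4.42, 4.59 and 5.06 FPKM (-0.37, SE 0.055, adjusted p = 0.00042), again without overlap. CHEK2 has annotated pseudogene copies, so its reads may have been split. On the branch that responds to single-stranded DNA, the ATR partner gene ATRIP fell (3.18 to 2.48 FPKM, -0.27), while ATR (0.12, adjusted p = 0.13) and CHEK1 (0.13, adjusted p = 0.0501) were not called. CHEK1 was past the threshold under 8 other settings. ATR was past it with voom, under both scalings to reads on genes and without SK/EPI replicate 2. ATRIP shares 27.9% of its exonic bases with TREX1 on the same strand.

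At the chromatin around breaks, 3 of 5 genes were lower and 1 higher. The called share was 80%, against 74.9% of all genes tested. H2AFX, whose phosphorylated product marks break sites, is at GRCh38 chr11:119093854-119095467, minus strand. It was at 107, 105 and 105 FPKM in SK-BR-3 and 76.3, 81.6 and 83.3 FPKM in SK/EPI libraries (-0.39, SE 0.04, adjusted p = 4.3e-05, limma). MDC1, the adaptor that binds this mark, fell from 13.3, 14.5 and 14.1 FPKM to 11.5, 11.8 and 12.4 FPKM (-0.21), and the ubiquitin ligase gene RNF8 from 2.47 to 1.72 FPKM (-0.35). TP53BP1, which protects ends from trimming, rose without overlap from 5.51, 5.81 and 6.12 FPKM to 7.41, 6.94 and 7.29 FPKM (0.27, SE 0.05, adjusted p = 0.0015). TP53BP1 shares 28.7% of its exonic bases with TUBGCP4 on the opposite strand. RNF168, which acts after RNF8, was at 8.47 and 8.95 FPKM and was not called (0.07).

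End joining held the largest fall and changes in both directions. LIG4 is at GRCh38 chr13:108207439-108218368, minus strand. It was at 5.95, 6.64 and 6.87 FPKM in SK-BR-3 and 2.20, 2.21 and 2.26 FPKM in SK/EPI libraries, from 414 to 574 and from 175 to 189 reads. The fall was 2.92-fold (-1.21, SE 0.061, adjusted p = 6.3e-07, limma), and the SK/EPI libraries were nearly level with each other. XRCC4, whose product holds LIG4 in a complex, rose from 1.58, 1.55 and 1.59 FPKM to 2.90, 2.56 and 2.35 FPKM (0.48, SE 0.068, adjusted p = 0.0003), without overlap. XRCC6 fell from 113 to 79.3 FPKM (-0.51) and the other Ku subunit XRCC5 was not called (50.3 and 48.2 FPKM, -0.06). DCLRE1C, the nuclease Artemis, fell from 2.13 to 1.39 FPKM (-0.39), and its activating kinase gene PRKDC rose from 58.7 to 64.6 FPKM (0.14). POLQ of the alternative end-joining route (0.02), LIG3 (0.08) and XRCC1 (0.01) were not called.

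**Figure D2:**
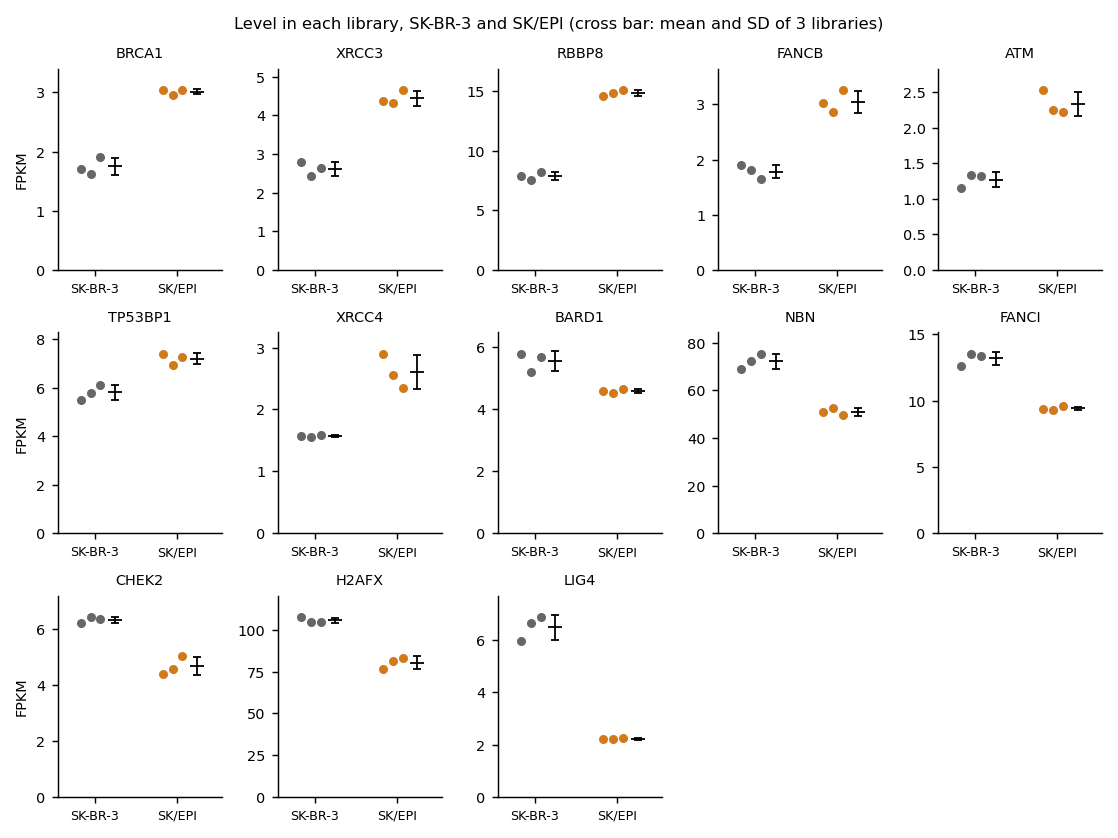
FPKM on the vertical axis, starting at 0, in each of 3 SK-BR-3 (grey) and 3 SK/EPI (orange) libraries for 13 repair genes, with a cross bar for mean and SD. In none of the 13 panels do the groups overlap: BRCA1, XRCC3, RBBP8, FANCB, ATM, TP53BP1 and XRCC4 are higher in SK/EPI cells, and BARD1, NBN, FANCI, CHEK2, H2AFX and LIG4 are lower.

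Further genes of these pathways, which are not among the 50, leaned lower. Of 53 tested, 13 were higher (24.5%) and 23 lower (43.4%), against 37.9% and 37% of all genes, with a median log2 fold change of -0.10. The largest falls were those of CLSPN (-0.96), the adaptor through which ATR activates CHEK1, PAXX (-0.89), an end-joining factor, and RPA2 (-0.89), which coats single-stranded DNA. The largest rises were those of the helicase gene WRN (0.51), PSMC3IP (0.37) and TIPIN (0.31). Of 27 replication and mitosis genes 6 were higher and 18 lower, with a median of -0.46, led by RRM1 (-1.80), CDC6 (-1.59) and MKI67 (-1.32), while CDT1 (0.47), CCNB1 (0.44) and MCM4 (0.36) rose most. Of 17 p53 target genes 11 were higher and 3 lower, with a median of 0.64. PMAIP1 (3.89), ZMAT3 (2.87) and BTG2 (2.01) rose and CDKN1A (-1.30), DDB2 (-1.04) and XPC (-0.36) fell. Of 19 genes of base excision, nucleotide excision and mismatch repair 9 were higher and 7 lower (median 0.11), with ERCC6 (0.92), UNG (0.65) and ERCC2 (0.61) at the upper end and XPA (-0.75) and FEN1 (-0.66) among those that fell.

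**Figure D3:**
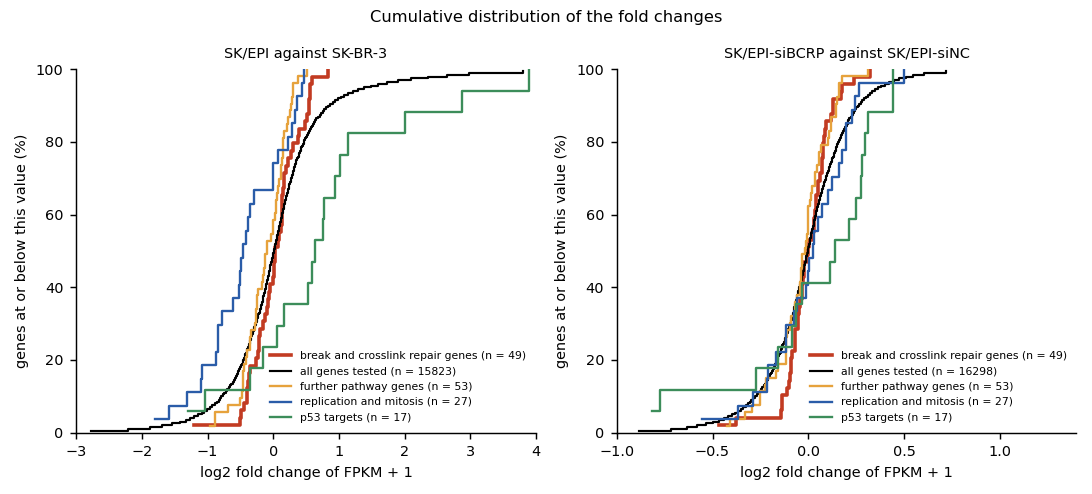
Cumulative share of genes (vertical axis, %) at or below each log2 fold change of FPKM + 1 (horizontal axis), for the 49 repair genes (red), all genes tested (black) and 3 other lists, in SK/EPI against SK-BR-3 cells (left) and SK/EPI-siBCRP against SK/EPI-siNC cells (right). The red curve is steeper than the black in both panels, with 18.4% of repair genes against 36.8% of all genes at an absolute change of at least 0.5 on the left, and the replication and mitosis curve lies to its left there (median -0.46).

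After BCRP silencing, few repair genes changed and none by as much as 0.5 on the log2(FPKM + 1) scale. LIG3 was at -0.52 with voom, and H2AFX at -0.52 without SK/EPI-siBCRP replicate 1. ABCG2 was at 32.5, 32.7 and 33.7 FPKM in SK/EPI-siNC and 2.84, 3.47 and 2.91 FPKM in SK/EPI-siBCRP libraries, 10.7-fold lower. Of the 49 repair genes tested, 5 were higher (CHEK1, FANCF, FANCG, POLQ and RAD50) and 4 lower (H2AFX, LIG3, NBN and XRCC5), 18.4% in all, while 38.1% of all genes tested were called, 19.4% higher and 18.7% lower. The median log2 fold change was -0.0012 for the repair genes and -0.0036 for all genes, and 5.10% of all genes changed by at least 0.5. The groups did not overlap in 20 of the 49, against 50.9% of all genes tested, and 12 had an unadjusted p-value under 0.05, against 47.4%. The 40 genes not called had 95% intervals between -0.28 (RAD51C) and 0.27 (BLM). The summed marker levels ranged from 2180 to 2219 FPKM in silenced and from 2610 to 2658 FPKM in control cells for the epithelial list, from 209 to 213 and from 180 to 185 FPKM for the mesenchymal, from 8.74 to 9.60 and from 7.26 to 8.27 FPKM for the immune and from 22.3 to 22.5 and from 13.9 to 14.1 FPKM for the endothelial list, and their part was not tested. All 6 epithelial markers were called lower (median log2 fold change -0.20), against 18.7% of all genes tested. In each of the other lists 3 were tested and 1 was higher, and 1 mesenchymal marker was lower.

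On the log2(FPKM + 1) scale H2AFX showed the largest fall, with a wide gap between groups. It went from 58.8, 56.6 and 58.8 FPKM to 44.9, 40.5 and 40.0 FPKM, 1.39-fold (-0.47, SE 0.044, adjusted p = 0.00021, limma). LIG3, the ligase that seals single-strand nicks and alternative joints, fell from 3.00, 3.55 and 3.40 FPKM to 2.29, 2.35 and 2.29 FPKM, 1.43-fold (-0.38, SE 0.062, adjusted p = 0.0028). In plain FPKM this fall was larger than that of H2AFX. LIG3 shares 29.1% of its exonic bases with RFFL on the opposite strand. CHEK1, the checkpoint kinase of the ATR branch, showed the largest rise on the log2(FPKM + 1) scale. It went from 7.83, 7.97 and 7.13 FPKM to 9.72, 10.2 and 9.42 FPKM, 1.28-fold and without overlap (0.32, SE 0.05, adjusted p = 0.0022, limma). In plain FPKM the weakly expressed RAD50 rose more, 1.32-fold. FANCF, an adaptor of the Fanconi core complex, rose from 4.78, 4.64 and 4.05 FPKM to 5.60, 5.56 and 5.24 FPKM (0.24, SE 0.061, adjusted p = 0.0198), and FANCG from 16.5 to 18.7 FPKM (0.17). POLQ, the polymerase of alternative end joining, rose from 3.81, 3.90 and 3.96 FPKM to 4.39, 4.66 and 4.53 FPKM (0.18, SE 0.043, adjusted p = 0.016). All libraries of the silenced cells lay above those of the control for these genes.

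NBN fell from 47.1, 48.6 and 48.3 FPKM to 42.1, 45.0 and 46.3 FPKM (-0.11, SE 0.036, adjusted p = 0.0489). XRCC5 fell from 44.7, 45.8 and 45.0 FPKM to 40.7, 42.7 and 43.0 FPKM (-0.10, SE 0.027, adjusted p = 0.024). These differences were small, though without overlap, and RAD50 rose only from 0.397 to 0.525 FPKM (0.13, adjusted p = 0.0468). No gene of the BRCA complex and none of the strand exchange paralogs and motors was called, against 38.1% of all genes tested. Among them were BRCA1 (3.42 and 3.15 FPKM, 95% interval -0.25 to 0.06) and XRCC3 (3.03 and 3.41 FPKM, -0.00093 to 0.26). Under other settings XRCC3 was called with voom, and RAD51C without SK/EPI-siNC replicate 2. LIG4 was at 3.57 ± 0.459 and 3.49 ± 0.166 FPKM (SD, n = 3) and was not called, with a 95% interval of -0.21 to 0.16. RBBP8 was likewise not called (17.8 and 18.3 FPKM, 0.04). With each library left out in turn, 2 to 4 repair genes were called higher and 2 to 4 lower. RAD50 lost its call with each of the 6 libraries left out, and NBN kept it only without SK/EPI-siBCRP replicate 3. FANCF lost it without SK/EPI-siBCRP replicate 1 or 2, POLQ without SK/EPI-siBCRP replicate 2 or SK/EPI-siNC replicate 1, and XRCC5 without SK/EPI-siNC replicate 2 or 3. The calls of CHEK1, FANCG, H2AFX and LIG3 were kept in all 14 other fits.

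**Figure D4:**
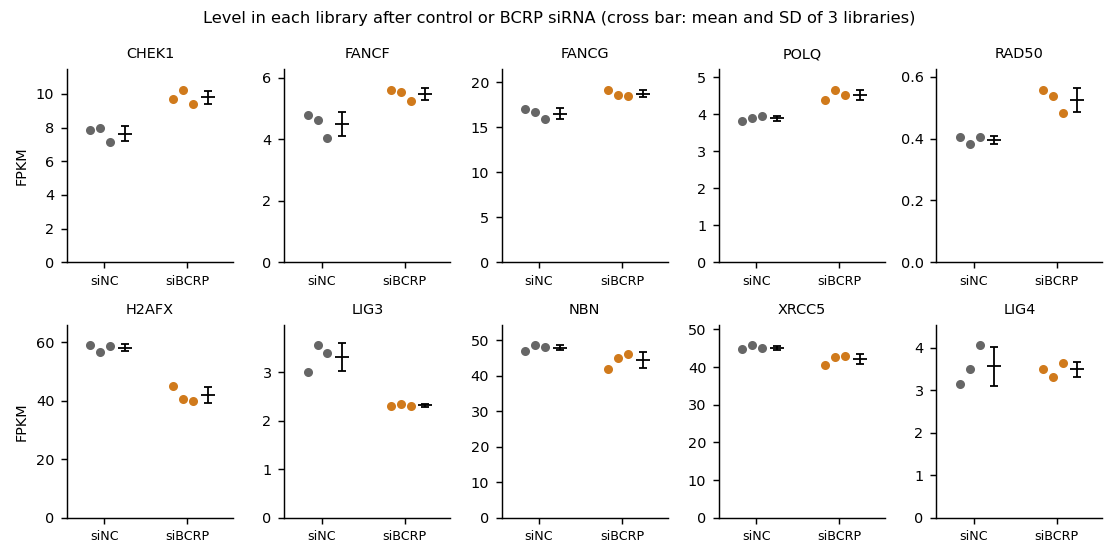
FPKM on the vertical axis, starting at 0, in each of 3 SK/EPI-siNC (grey) and 3 SK/EPI-siBCRP (orange) libraries for the 9 repair genes that were called and for LIG4, with a cross bar for mean and SD. CHEK1, FANCF, FANCG, POLQ and RAD50 are higher and H2AFX, LIG3, NBN and XRCC5 lower in silenced cells without overlap, whereas the libraries for LIG4 overlap.

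Neither FANCC (0.05) nor RNF8 (-0.01), the repair genes whose 3′ UTR holds the seed match of the siRNA, was called, and none of the 4 repair genes that fell holds it. Over all tested genes with a 3′ UTR, 40.9% of the 1361 with a match were called lower (median log2 fold change -0.09), against 17.5% of the 11524 without (median 0.01). Of the further pathway genes 2 of 53 were higher, RAD1 (0.31) and SHLD2 (0.14), and 9 lower (median -0.019), led by SEM1 (-0.42), RNF169 (-0.41) and WEE1 (-0.33). Replication and mitosis genes went both ways, with 9 of 27 higher and 7 lower (median 0.023), among them E2F1 (0.50) and TOP2A (-0.56). Of the p53 targets 6 of 17 were higher and 4 lower (median 0.14), with GADD45A (0.44), PMAIP1 (0.44) and TP53I3 (0.31) highest and BTG2 (-0.82), ZMAT3 (-0.77) and SESN1 (-0.28) lowest, and of the other repair pathways 5 of 19 were higher and 2 lower (median 0.057).

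The comparisons share no library, and 4 repair genes were called in both. FANCG and RAD50 were higher both in SK/EPI cells and after silencing, and H2AFX and NBN were lower in both. Only FANCG and H2AFX kept both calls under all settings. RAD50 lost each of its calls, and NBN that after silencing, under at least 1 setting. None of the 4 was called in opposite directions. Of the 4892 genes called in both comparisons among all genes, 52.7% had opposite directions. Of the 17 repair genes higher in SK/EPI cells 15 were not called after silencing and none was lower, and of the 14 lower 12 were not called and none was higher. Over all genes tested in both comparisons, 57.5% of those higher and 55.9% of those lower in SK/EPI cells were not called after silencing, and 32.3% were called in both, against 4 of the 49 repair genes. Over the same genes, 1290 of the 5908 higher in SK/EPI cells were lower after silencing. Of the 5394 lower in SK/EPI cells, 1289 were higher after it. Whether the effects differed between comparisons was not tested. The tables may have been normalised separately, and levels of SK/EPI and SK/EPI-siNC cells are only set side by side. LIG4 was at 2.22 and 3.57 FPKM, H2AFX at 80.4 and 58.1 FPKM, PRKDC at 64.6 and 38.8 FPKM, XRCC6 at 79.3 and 80.7 FPKM and RBBP8 at 14.9 and 17.8 FPKM in SK/EPI and SK/EPI-siNC cells, respectively.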

How the data were processed

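The values are FPKM as the authors deposited them, 58735 genes in each of 2 tables, the first of the untransfected lines and the second of the transfected cells, and all columns were used. The submitters' processing notes name HISAT2 2.0.5, featureCounts 1.5.0-p3 and DESeq2 1.16.1 and the build hg38. The handling of strand and multi-mapping reads is not given in the sources used here. The headers state no unit. Each value times the merged exon length in GENCODE 29 was a whole multiple of a step per library (100% of values above 0, tolerance 0.02 reads), which gave the reads per gene and the depth, between 15830381 and 20545811 reads on genes. Column sums ranged from 253312 to 288028, so the values are not TPM.

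A gene was tested if 3 or more libraries had 10 or more reads, scaled to the median depth, and all libraries together had 15 or more, which kept 15823 and 16298 genes. Within each table the group was the only term of the model, fitted to log2(FPKM + 1) with limma 3.58.1 (eBayes with trend, R 4.3.3), with Benjamini-Hochberg adjustment over all tested genes. Steps were tested on simulated data. SDs are over 3 libraries. Alternatives were other filters, a pseudocount of 0.1 FPKM, scaling to reads on genes, median-of-ratios scaling, voom, a replicate block and leaving out each library. Leaving out genes with mostly shared exons was chosen after seeing the data. Overlaps of exons were counted with GENCODE 29 and promoter windows were RefSeq's. Figures used Python 3.11.15 and matplotlib 3.10.9.

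The 50 genes and the lists were chosen with earlier results of these data known. Values of every library are given, by role, for the called gene with the largest rise and the largest fall if its mean reached 1 FPKM in a group, and for every gene whose log2 fold change reached 1 in size. Other library values and the side-by-side levels were chosen after their values were seen. From the other lists the 3 largest rises and falls among called genes were eligible. A gene of the other repair pathways is not reported here by name.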

Additional observations from a re-analysis of the deposited data

How the results depend on the processing

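In SK/EPI against SK-BR-3 cells, 26 of the 31 called repair genes (14 higher, 12 lower) kept call and direction under all settings. FANCD2, RAD50, RAD51B, RAD51C and RAD51D lost it under at least 1. BRCA2, FANCA, FANCM, BRIP1, ATR, CHEK1, RNF168 and LIG3, not called above, were called with voom. All but BRIP1 were also called when scaled to the reads on genes. XRCC1 was called when the mitochondrial chromosome was also left out, and EXO1 without SK-BR-3 replicate 1. The median log2 fold change of 0.030 moved to 0.12 with voom, 0.10 when scaled to the reads on genes and 0.12 when the mitochondrial chromosome was also left out. In this comparison voom called 24 repair genes higher and 15 lower. With each library left out in turn, 15 to 18 genes were higher and 13 to 15 lower, with medians from 0.02 to 0.06. After BCRP silencing, 4 of 9 calls were kept under all settings. Voom gave 7 lower genes, and testing without a filter gave 3 higher and 2 lower, with more genes in the adjustment. Leaving out each library gave 2 to 4 higher and 2 to 4 lower genes, with medians from -0.01 to 0.01. With the replicate block 17 genes were higher and 15 lower in SK/EPI cells, and 4 and 4 after silencing. Same-numbered libraries did not deviate together (correlations from -0.05 to -0.00 and from 0.01 to 0.06), so the numbers were not taken as pairs. The causes of these shifts were not tested.

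No called gene changed sign. In 38 fits of 18 uncalled genes the sign changed, to values of at most 0.060 in size. For SK/EPI against SK-BR-3 cells these were RAD54L (0.033) and XRCC5 (0.026) with voom, the same genes when scaled to the reads on genes (0.033 and 0.026), RAD54L (0.048), XRCC5 (0.042) and EXO1 (0.0091) when the mitochondrial chromosome was also left out, and RAD54B (-0.00045) with median-of-ratios scaling. After silencing they were XRCC6 with voom (-0.0093) and both scalings to reads (-0.0079 and -0.0052), and MRE11 (0.0023) with median-of-ratios scaling. With each library left out in turn, FANCF ranged from -0.060 to 0.055, POLQ from -0.00068 to 0.058, RAD54B from -0.024 to 0.023 and XRCC1 from -0.0025 to 0.042 in SK/EPI against SK-BR-3 cells. After silencing CHEK2 ranged from -0.025 to 0.073, FANCD2 from -0.13 to 0.038, LIG4 from -0.090 to 0.054, MRE11 from -0.037 to 0.023, RAD51B from -0.065 to 0.028, RAD52 from -0.11 to 0.050, RBBP8 from -0.017 to 0.076, RNF168 from -0.011 to 0.041, RNF8 from -0.060 to 0.029, XRCC4 from -0.14 to 0.00097 and XRCC6 from -0.019 to 0.021.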
